A study of Rattus norvegicus with 35 samples.

Results

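Pups of the same litter shared a mother and a nest, yet the RNA levels measured in their dissected olfactory tissue were not the same. The account here concerns the spread between littermates. It covers all newborn pups of the series, 19 of the 35 samples, and each probe was read as its distance from the mean of the pup's own litter. The pups were taken by their label as newborn, with no choice by any measured value. RNA of the olfactory epithelium of Brown Norway rats of 3 ages had been labelled with 1 dye and hybridized to Agilent whole rat genome arrays. The 19 pups, between 3 and 5 days old, came from 4 litters called L1 (4 pups, rats 9 to 12), L2 (5 pups, rats 21 to 25), L3 (5 pups, rats 26 to 30) and L4 (5 pups, rats 31 to 35), with 1 array each, from 1 side of the nose. The labels give no sex for them. The 4 adult rats (9 weeks) and the 4 old rats (22 months) gave 2 arrays each, from side A and side B of the nose, and stand here as a measure of the spread between the sides of 1 animal. The labels name no treatment and no altered allele.

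The olfactory epithelium is a sheet of sensory neurons, supporting (sustentacular) cells and basal stem cells that lines the back of the nasal cavity. Each sensory neuron uses mainly 1 olfactory receptor (OR) gene out of a very large family, and new neurons are born from globose basal cells throughout life. Around the sheet lie glands, ciliated respiratory epithelium, blood vessels, nerve bundles with their glia, cartilage, growing bone and, nearby, muscle, tooth buds, skin and the olfactory bulb of the brain, so that a dissected piece can hold differing amounts of each.

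The tissue named in the labels was checked against its markers. Levels are given as the log2 of the background-subtracted intensity over the median of the array, so that 1 unit is a doubling and 0 is the middle probe of the array. Omp, the marker protein of mature olfactory neurons, ran from 4.42 to 5.72 with a median of 5.23. Cnga2, the odour-gated channel, had a median of 6.49, and Cyp2g1, an enzyme of supporting cells and glands, had a median of 7.26. Every pup thus carried the markers of the neurons and of the cells around them. Foxj1, the regulator of motile cilia, lay between 8.32 and 9.64, and Krt5, a keratin of basal cells, between 4.68 and 8.60, the widest range of the 9 markers looked at.

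The spread between littermates was small for most genes and very large for a few. Genes of cornified epithelium and tooth enamel, of the central nervous system, of secretions, of skeletal muscle and of inflammation held the top of the order, and the reference genes of general metabolism lay near the bottom. A probe counted when its spots were well above background on all 19 arrays, which 22883 of 41012 probes met. A further 951 met it on exactly 18 arrays and were left out, as were 9187 that met it on none. Over the probes that counted, the median of the pooled within-litter standard deviation (SD, in log2 units, 15 degrees of freedom) was 0.204, which is 1.15-fold, and the 95th percentile was 0.535, which is 1.45-fold. The spots of a probe printed several times on an array differed by an SD of 0.0684. The largest SD, 3.66, was 17.9 times the median, and 230 probes had an SD above 1. Dim probes were wider: in 5 equal groups of probes from the dimmest to the brightest the median SD was 0.263, 0.231, 0.198, 0.175 and 0.155. The array medians of the pups lay between 42.07 and 87.75 intensity units, with 24493 to 28376 probes well above background per array, and the number of arrays limits the precision.

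Pups of 1 litter differed more than the sides of 1 nose did, as a description. Over the 21730 probes well above background on all 35 arrays, the median SD was 0.199 between littermates and 0.124 between the sides of an adult or old rat, and the SD of the pups was the larger for 83.9% of the probes. Between rats of 1 age, with side A alone, it was 0.158. Keratin gene LOC683313 had an SD of 3.66 between littermates and 0.384 between sides, and Omp had 0.343 and 0.174, while Alas2 (0.458 and 0.676), Ibsp (0.267 and 0.497), Bpifa1 (0.122 and 0.276) and LOC259246 (1.84 and 2.87) were wider between sides. In a test of the deviations with limma, no probe was called at an adjusted p under 0.05 in either direction (0% of 21730), while 5692 had an unadjusted p under 0.05. With the log2 of the deviations 1609 probes were called as wider in the pups and 22 as narrower, with the adult rats alone 0 and 56, with the old rats alone 0, and with no filter 66 and 75. Leaving out 1 pup gave 2 calls without rat 26 of L3 and 1 without rat 21 of L2. The pups and the older rats also differed in age and in slide. The study describes the older rats as male, and the labels give no sex for the pups. Age, slide and sex thus cannot be told apart.

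**Figure D1:**
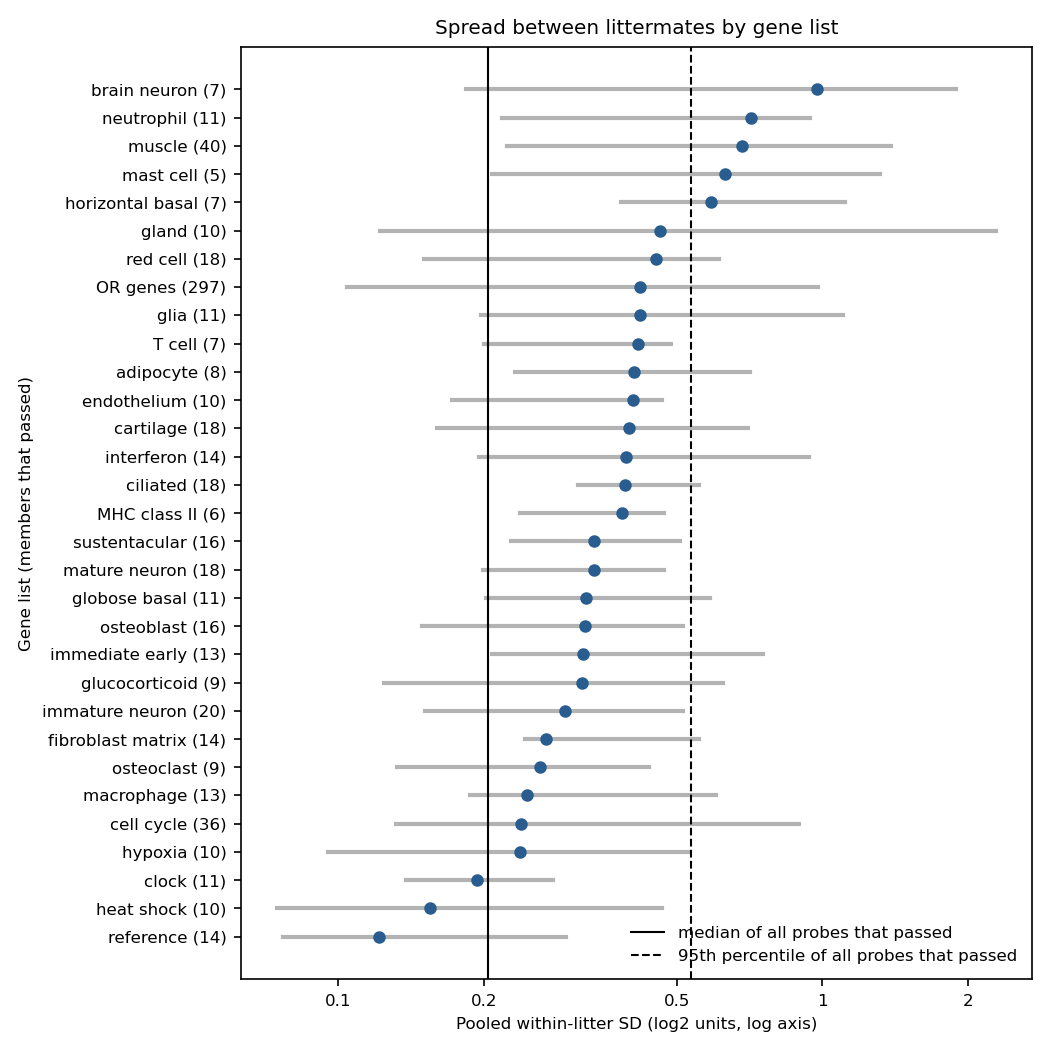
Spread between littermates for each gene list with at least 5 members well above background in all pups. Points give the median pooled SD (log2 units, log axis), grey lines the lowest and highest member, and the solid and dashed lines the median (0.204) and the 95th percentile (0.535) of all 22883 probes. Brain neuron, neutrophil, muscle, mast cell and horizontal basal cell lists have medians above the dashed line, and the reference list has the lowest.

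Each of 36 lists of genes for a cell type or process was then placed in this order, with 1 probe per gene. The share of all probes above the 95th percentile is 5.00% by construction. In bulk tissue, fewer cells of a type and less RNA per cell cannot be told apart. The list for epidermis, with 2 of 11 genes counting, had a median SD of 2.18, and the 1 tooth gene that counted, Amelx, had 3.23. The brain neuron list (7 of 12 genes) had 0.974, the neutrophil list (11 of 22) 0.712 and the muscle list (40 of 47) 0.682. Of the muscle genes 25, or 62.5%, lay above the 95th percentile, as did 8 of the 11 neutrophil genes and 4 of the 7 horizontal basal cell genes.

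The cells of the olfactory epithelium itself stood lower. Mature neurons had a median SD of 0.337 (18 genes), sustentacular cells 0.338 (16), globose basal cells 0.325 (11) and immature neurons 0.294 (20), and none of the 18 mature neuron genes lay above the 95th percentile. The list of horizontal basal cells, the reserve stem cells marked by Krt5, Krt14 and Tp63, was the exception with 0.590 (7). In rats 9, 10, 11 and 12 of L1 its median stood at 0.61, −0.77, 0.91 and −0.47. That of the epidermis list stood at 3.16, −2.88, 2.68 and −2.96 there. In rats 26, 31 and 32 the 2 lists lay on opposite sides of the litter mean. Whether the list followed olfactory basal cells or those of other stratified epithelium was not tested. The 297 OR genes that counted, of 1135 with a probe, had 0.420, and 37 of them (12.5%) lay above the 95th percentile. Respiratory ciliated cells had 0.391, glands 0.462, red cells 0.453, glia 0.420, mast cells 0.628, T cells 0.416 and endothelium 0.406. Cartilage had 0.399, lens and pigment 0.504 (3 genes alone), MHC class II 0.386 and the interferon response 0.393. Bone stood lower, with 0.324 for osteoblasts and 0.261 for osteoclasts. Next to these were 0.269 for fibroblasts, 0.277 for B cells (2 genes alone) and 0.245 for macrophages.

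The reference, heat shock and clock lists had the lowest medians of the 36 lists. Cell cycle genes had a median SD of 0.238 (36 genes), and a single gene of them, Mcm6, a subunit of the replicative helicase, lay above the 95th percentile, with 0.893. Of its sum of squares 72.3% came from rat 12 of L1, whose level was 8.95 against a median of 4.95, and without that pup its SD was 0.176. Adipocyte genes had 0.408, immediate early genes 0.320, glucocorticoid targets 0.319, hypoxia targets 0.237, the circadian clock 0.194, heat shock genes 0.155 and reference genes 0.121. The narrowest genes among those with a mean level above 2 included Bles03, between 4.51 and 4.85 in the 19 pups, and Ywhae, an adaptor protein of signalling, between 9.38 and 9.84. With normexp background correction followed by quantile normalization the median over all probes was 0.132, and the lists moved with it: OR genes had 0.185, T cells 0.233, adipocytes 0.201, mast cells 0.357, red cells 0.286 and endothelium 0.244. These are 6 of the 17 lists that moved. With slide as a block 8 lists moved, among them hypoxia (0.151), glucocorticoid (0.242), adipocyte (0.314) and MHC class II (0.306). With quantile normalization 3 moved and with the 75th percentile 1. Over all lists and pups left out 9 of 684 values moved, 4 of them for T cells.

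At the top of the order stood genes of stratified, cornified epithelium. LOC683313, annotated as similar to keratin 6a of wounded and hair follicle epithelium, had levels from 0.45 to 11.43 with a median of 2.21. Its level was far above the litter mean in rats 9 and 11 of L1, rat 30 of L3 and rat 32 of L4, and in rat 24 of L2 by 3.11. LOC499660, annotated as similar to the cornified envelope protein cornifin A, ran from −1.48 to 7.39 with a median of −0.66, and Krt1, a keratin of the upper epidermis, from −0.40 to 7.20 with a median of −0.03. For both genes rats 9, 11, 30 and 32 were again high and rats 10 and 12 of L1 low. Dmkn, Lgals7, Slpi, Stfa3, Csta, Klk13, Asprv1 and Krt17, all known from keratinocytes, were in the same part of the order, with SDs between 1.83 (Krt17) and 2.96 (Dmkn).

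Amelx, Calb1, Cyp26a1 and Csap1 were also among the widest genes. Amelx, which encodes the enamel matrix protein amelogenin, ran from −1.49 to 12.45 with a median of 4.62. Within L1 rats 9 and 11 were high, within L2 rats 23 and 25, within L3 rats 29 and 30, and within L4 rats 31 and 35, while rat 33 was lowest. Calb1, a calcium-binding protein, ran from −1.49 to 7.76, and Cyp26a1, which degrades retinoic acid, was highest in rat 11 with 6.94. Csap1 (common salivary protein 1) ran from −0.07 to 10.86 with a median of 8.56, and in L2 alone its deviations reached from −4.25 in rat 23 to 6.67 in rat 24. Rats 24 and 25 were also the high pups of L2, and rats 21, 22 and 23 the low ones, for Dmbt1, a mucosal scavenger protein, for LOC259246, an alpha-2u globulin, and for LOC690507, annotated as similar to vomeromodulin.

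**Figure D2:**
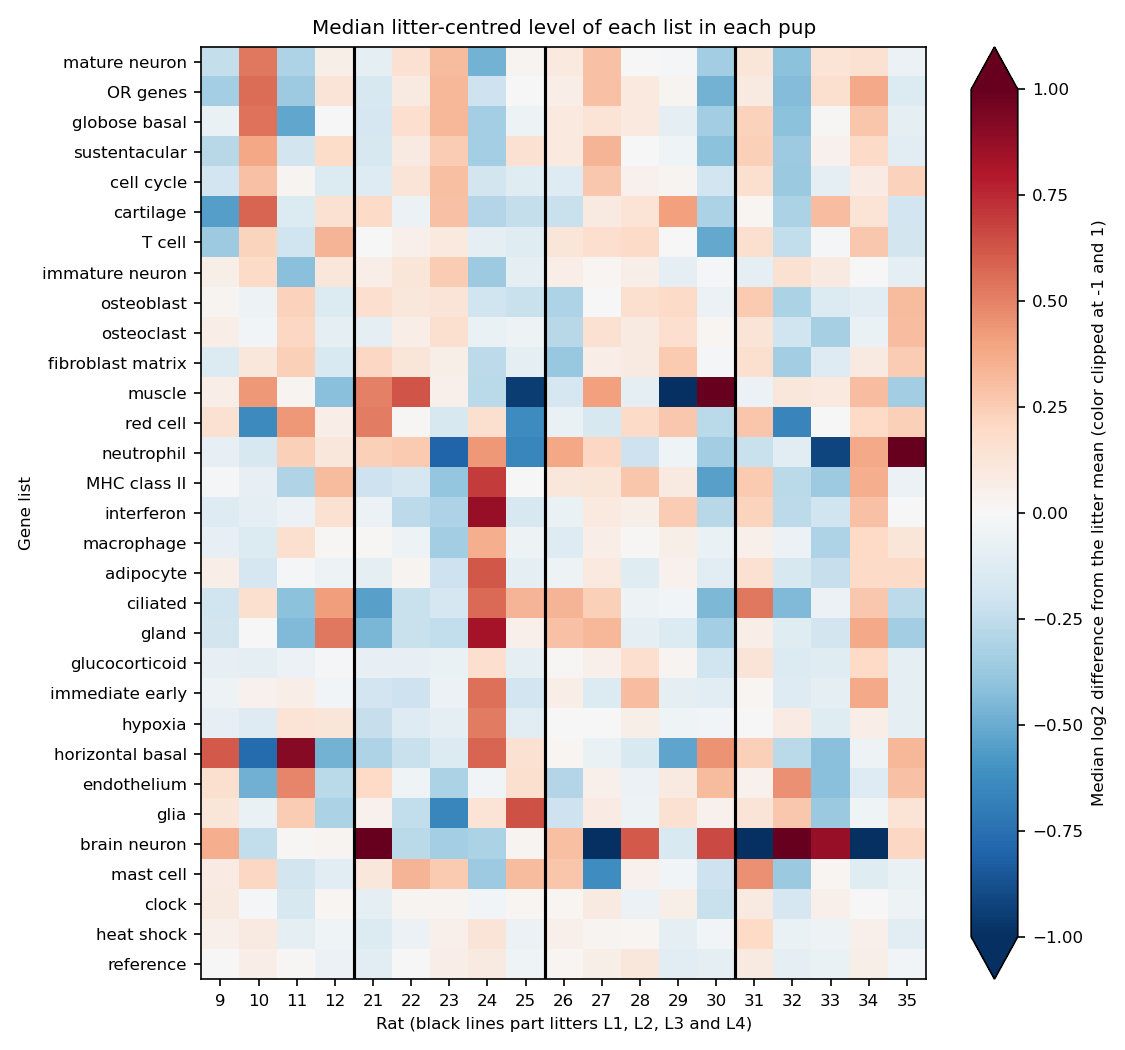
Median distance of 31 gene lists from the litter mean in each of the 19 pups, in log2 units, with colours clipped at −1 and 1. Rat 24 of L2 is high for interferon (0.87), gland (0.83) and MHC class II genes (0.70), rat 30 of L3 is high for muscle (1.17), and rat 27 of L3 is low for brain neurons (−1.60).

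A few pups carried much of the spread. The first principal component of the litter-centred levels held 38.1% of the variance, the second 16.0% and the third 11.9%. On the first, rats 32 (49.14) and 30 (45.69) stood against rats 34 (−39.51) and 27 (−37.64), with keratin genes and the brain genes Atp2b2 and Slc32a1 loading with the first pair, and secretory and OR genes with the second. On the second, rat 24 of L2 stood at 55.14 and the next pups at 10.37 and 10.1, against rats 23 (−26.19) and 10 (−19.79). Rat 24 also had the largest root mean square deviation over all probes, 0.387, and 489 probes more than 2-fold from the litter mean, next to 485 in rat 32, 355 in rat 27 and 42 in rat 26. Without rat 32 the first component held 33.5% and without rat 24 it held 43.4%.

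The 300 probes of highest SD, grouped by their correlation over the pups (average linkage, groups joined up to a distance of 0.5, at least 8 probes), gave 5 modules that held 274 of them. Of the OR genes, only Olr720 and Olr1627 were among the 300, and neither was in a module. Without rat 24 there were 3 modules. Since the grouping used the same values, the grouping was not tested, and the modules are described by the genes and the list members they held.

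The largest module, 165 probes with 102 gene symbols, held 5 probes of the brain neuron list and many other genes known from neurons. Slc32a1, which loads GABA into vesicles, had an SD of 1.89 and levels from −0.05 in rat 27 to 5.58 in rat 32, with a median of 4.07. Atp2b2, a calcium pump of synapses, ran from −1.64 in rat 34 to 4.75 in rat 32, with a median of 3.19. The median of the module was high in rats 32 (1.75), 21 (1.59), 30 (1.20) and 33 (0.96) and low in rats 27 (−2.03), 34 (−1.81) and 31 (−1.14). Other members were Reln, the secreted guidance protein of mitral cells (SD 1.42), Scgn, a calcium sensor (1.49), Slc12a5, the chloride exporter of neurons (1.46), Nrxn3 (1.70), Cck (1.32), Tac1, Neurod2, Dlx1, Grin1 and Camk2b. These probes followed each other closely, with a median correlation of 0.941 within the module.

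The whole brain neuron list was looked at for the same pups. Of its 14 genes 12 had a probe and 7 counted. Slc32a1, Reln, Gria2 (1.03) and Cdhr1 (0.974) were wide, while Calb2, a calcium-binding protein that is also made in the epithelium, had 0.184 and Camk2a had 0.364. The brightest probe of the list was that of Cdhr1, with a mean level of 10.51. Gad1 was well above background on 18 arrays, Slc17a7 on 15, Gad2 on 14 and Th on 13, so these 4 transmitter genes did not count. The median of the list was 1.24 above the litter mean in rat 21, 1.19 in rat 32 and 0.87 in rat 33, and at −1.60 in rat 27, −1.25 in rat 31 and −1.16 in rat 34. Its part in the other results was not tested.

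The next module, 53 probes with 45 symbols, held genes of cornified epithelium and of teeth. Its members were Amelx of the tooth list, Krt1 and Krt17 of the epidermis list and Krt5 of the horizontal basal cell list, with Tgm1 and Aloxe3, enzymes of the skin barrier, and Wnt10a and Msx2, known from tooth buds. Its median lay 2.44 above the litter mean in rat 30, 2.05 in rat 9 and 1.93 in rat 11, and at −2.02 in rat 10 and −1.87 in rat 12. The epidermis list as a whole, 11 genes with a probe, was mostly outside the filter: Krt10, Ivl and Cnfn were well above background on 4 arrays each, Flg on 6, Krt4 and Sbsn on 7 and Krt13 on 8. Its brightest probe was that of Krt17, with a mean level of 1.49.

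The module of 31 probes held chemokines, interleukins and a mucin. Cxcl2, a chemokine that draws neutrophils, ran from −0.34 in rat 31 to 9.41 in rat 24 with a median of 0.99. Muc5ac, a gel-forming mucin of goblet cells, ran from 0.56 in rat 23 to 7.92 in rat 24 with a median of 3.21. Rat 24 was the highest pup for both, and for Cxcl2 53.0% of the sum of squares came from it, with an SD of 1.77 with it and 1.07 without it. Il1b (SD 1.38), Il1rn (1.41), Ccl3 (1.51), Cxcl1 (1.14), Ccl20 (1.13), Reg3b (1.66) and the hydrogen peroxide source Duox2 (1.1) were members. The median of the module was 2.96 above the litter mean in rat 24, and at −1.41 in rat 23 and −1.02 in rat 25 of the same litter.

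The smallest modules held muscle genes and mast cell proteases. The muscle module (17 probes, median SD 1.06) was highest in rat 30 (2.03) and lowest in rat 29 (−2.45), both of L3. The module of 8 probes held Mcpt1 and Mcpt9, proteases of mast cells, and Vch. It was high in rats 33 (2.19), 26 (1.53) and 23 (1.03) and low in rats 24 (−2.17) and 32 (−1.77). Mcpt1 ran from 1.38 in rat 32 to 7.16 in rat 23 with a median of 4.05. Cpa3, the carboxypeptidase of mast cells, had an SD of 0.844 and was, like Mcpt1, highest in rat 23 and below the litter mean in rat 24, by a deviation of −1.66. Cma1, the chymase (SD 0.628), was instead lowest in rat 23 (−0.32) and highest in rat 30 (1.96). Tpsab1 had an SD of 0.208 and Hdc, which makes histamine, 0.347, and over the 5 mast cell genes the median correlation between pairs was −0.115. Between modules, the inflammatory and the protease module had a correlation over the 19 pups of −0.62, the brain and the epithelial module 0.36, and the brain and the inflammatory module −0.01.

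To find the genes that vary together, 1 gene was set for each of 8 cell types or processes, and every other probe was tested with limma for a slope on that gene over the 19 pups, with the litters as groups. A slope of 1 means that the probe moved by the same log2 amount. A probe was called at a p adjusted over all probes under 0.05.

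**Figure D3:**
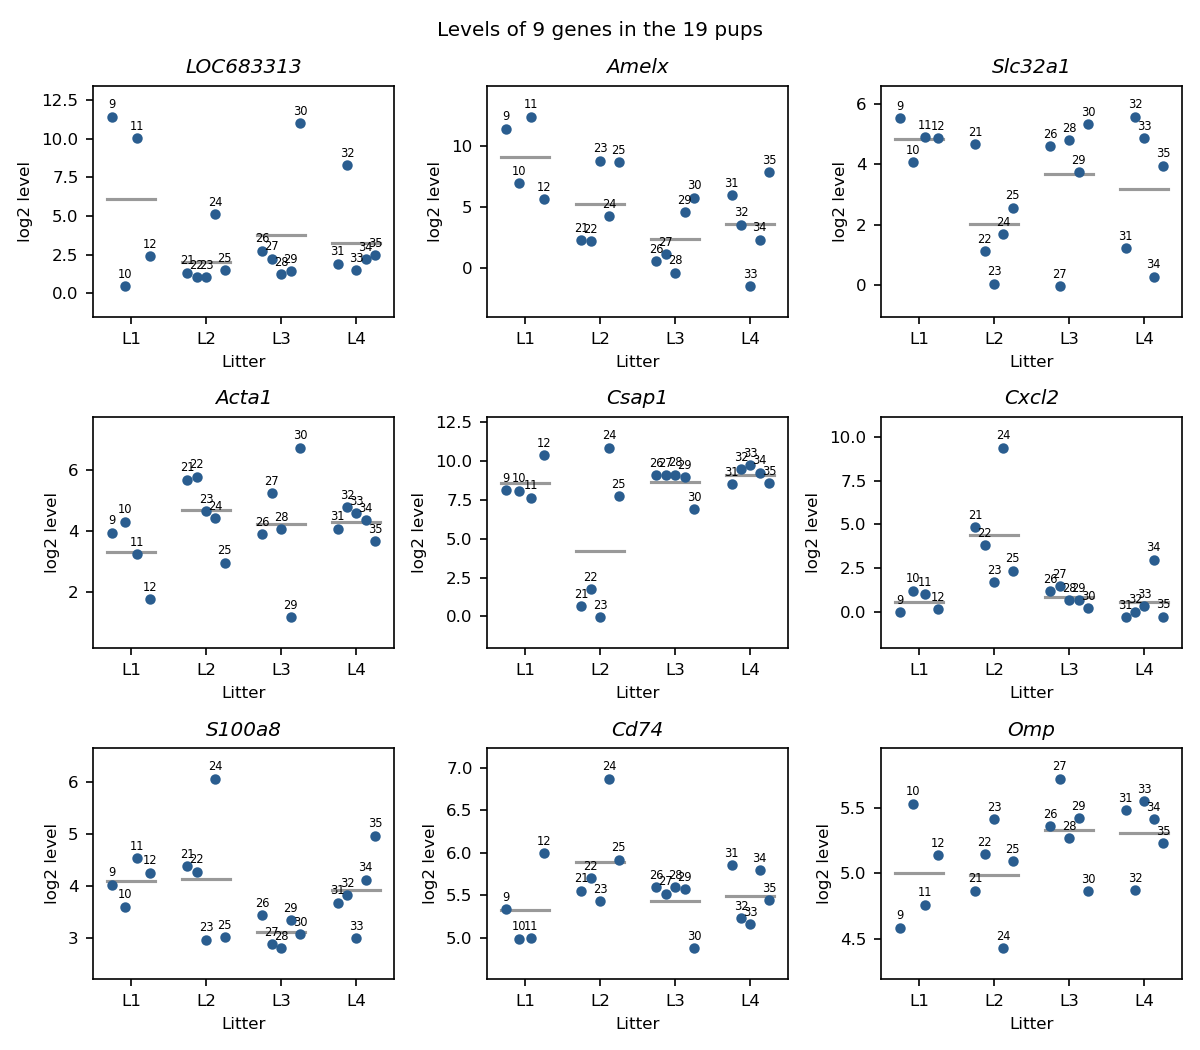
Log2 level over the array median of 9 genes in each pup. Points are pups, marked with the rat number, in columns by litter, and grey lines are litter means. LOC683313 and Amelx span more than 10 units between the lowest and the highest pup, and Omp spans from 4.42 to 5.72.

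Many skeletal muscle genes, though not all, rose with Acta1, in a narrow block of 55 probes. Acta1, skeletal muscle actin, had levels from 1.14 in rat 29 to 6.74 in rat 30, with a median of 4.30. The extreme pups were littermates, and rats 12 and 25 were low in L1 and L2. With Acta1, 55 probes rose (0.240% of 22882) and none fell (0%), and 881 had an unadjusted p under 0.05. Of the 39 other muscle genes 22 rose and 36 had a slope above 0 (10047 of all 22882 probes did), and no gene of another list was called. Leaving out rat 27 or rat 35 gave 2 probes that fell, and leaving out rat 10, 24, 33 or 34 gave 1.

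Parts of the sarcomere led the calls with Acta1. Tnnt3, troponin T of fast fibres, had a slope of 0.77 (standard error 0.0303, adjusted p 9.87e-11), with the direction of Acta1 in 17 of the 19 pups. Myh8, the perinatal myosin heavy chain, had a slope of 1.02 (standard error 0.0412, adjusted p 9.87e-11) in 16 pups. Myl1 (slope 0.78, adjusted p 7.03e-10, 18 pups) and Ckm, muscle creatine kinase (0.84, adjusted p 8.65e-09, 17 pups), followed. Des, Mybpc1, Tnni2, Csrp3 and Myoz1 were also called. Myog, a regulator of muscle differentiation, had an SD of 0.714, while Myod1 was well above background on 15 arrays and did not count. Myh4, the adult fast myosin, and Chrna1 were well above background on no array. With no filter 89 probes were called.

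Promoters of genes that rose with Acta1 are shown because some of them hold the same short motifs. The table of 33469 rat promoters (RefSeq, build GRCr8) held 38 promoters of 37 of the 47 symbols in the group, Acta1 included. In the 250 bases before the gene start, on both strands, the E box CAGCTG, a motif read by muscle regulators of the MyoD family, was in 13 of the 38 (34.2%) and in 12.0% of all promoters, and TATAAA was in 12 (31.6%) and in 12.9% of all. Acta1 (chr19:68784195-68784444, minus strand), Ckm (chr1:88189211-88189460, plus strand) and Des (chr9:84299376-84299625, plus strand) each held CAGCTG, and Acta1 also held TATAAA. These 3 are shown with the motifs in capitals, and a match is a description and not a site of binding.
Acta1: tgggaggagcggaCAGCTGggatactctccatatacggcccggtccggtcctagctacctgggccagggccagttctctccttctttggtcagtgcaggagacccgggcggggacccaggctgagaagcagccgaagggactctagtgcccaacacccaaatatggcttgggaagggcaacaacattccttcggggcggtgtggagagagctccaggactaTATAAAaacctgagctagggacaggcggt
Ckm: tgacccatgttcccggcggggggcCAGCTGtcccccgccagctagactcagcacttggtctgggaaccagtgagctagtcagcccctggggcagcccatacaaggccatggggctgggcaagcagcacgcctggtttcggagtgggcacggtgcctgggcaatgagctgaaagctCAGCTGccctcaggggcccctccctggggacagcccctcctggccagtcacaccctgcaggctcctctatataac
Des: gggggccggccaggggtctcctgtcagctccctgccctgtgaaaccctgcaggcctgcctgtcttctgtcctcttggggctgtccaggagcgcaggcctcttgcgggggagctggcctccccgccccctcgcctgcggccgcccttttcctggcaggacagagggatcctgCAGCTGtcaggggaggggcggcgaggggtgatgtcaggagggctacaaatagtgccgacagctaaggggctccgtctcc

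Part of the red cell genes formed a second narrow block. Alas2, the first enzyme of haem synthesis in red cell precursors, ran from 7.39 in rat 32 to 9.60 in rat 21, with a median of 8.41. Rats 10, 25 and 32 were the low pups of L1, L2 and L4. With Alas2, 35 probes rose (0.153%) and 1 fell (0.00437%), and 562 had an unadjusted p under 0.05. Of the 17 other red cell genes 8 rose, among them Slc4a1, the anion exchanger of the membrane, with a slope of 1.02 in 18 pups, Epb42 and Gata1, and 16 had a slope above 0 (11341 of all 22882 probes did).

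Cd52 had the smallest adjusted p of the named genes here. Cd52, a surface glycoprotein of blood cells, had a slope of 1.07 (standard error 0.0784, adjusted p 1.64e-06, 17 pups). LOC688972, annotated as similar to glycophorin, had a slope of 0.99 (adjusted p 7.34e-05, 17 pups), Fgf17 1.26 (adjusted p 7.34e-05, 18 pups) and Rbm38, an RNA-binding protein, 0.65 (adjusted p 0.000105, 17 pups). The 1 gene that fell was Lss, an enzyme of cholesterol synthesis, with a slope of −0.39 (adjusted p 0.013, 16 pups). That call was lost with quantile normalization (adjusted p 0.166), with normexp (0.128), without rat 10 (0.0606) and without rat 32 (0.26). The embryonic and fetal globin genes Hbe1 (SD 0.580) and Hbg1 (0.611) were wider than Hbb-b1 (0.221). Without rat 10 of L1 21 probes were called, and without rat 32 of L4 23, and 5 of the 17 red cell genes rose in either case. Without rat 24, 2 probes fell.

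Bone matrix genes followed each other less tightly. Ibsp, a sialoprotein of mineralizing bone, ran only from 7.57 in rat 26 to 8.79 in rat 23, with a median of 8.06, and its SD was 0.267. Within L3 rat 26 was low, and within L4 rat 32. With Ibsp, 122 probes rose (0.533%) and 1 fell (0.00437%), and 3405 had an unadjusted p under 0.05. They included 1 of 15 osteoblast genes, 1 of 9 osteoclast, 2 of 18 cartilage and 3 of 14 fibroblast matrix genes, although 13, 8, 17 and 14 of these had slopes above 0, as did 13912 of all 22882 probes. None of the fibroblast matrix genes rose without rat 26, without rat 32 or with slide as a block, 1 rose without rat 29, and 5 rose with quantile normalization.

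P4ha1 and Panx3 had the smallest adjusted p of the named genes. P4ha1, which hydroxylates proline in collagen, had a slope of 0.82 (standard error 0.0898, adjusted p 0.00136, 17 pups), and Panx3, a channel of osteoblasts and cartilage, 1.32 (adjusted p 0.00261, 18 pups). Mamdc2 (1.11, adjusted p 0.00646) and Col11a1, a minor fibrillar collagen (1.15, adjusted p 0.00936, 14 pups), followed, with Col1a1, the chief collagen of bone (1.15, adjusted p 0.0119), Col5a1, Col5a2, Fn1 and Fkbp10. Chrm3, a muscarinic receptor, was the 1 gene that fell (slope −0.91, adjusted p 0.0367, 15 pups), and it was lost under every alternative setting but the series matrix and without any 1 of 10 pups. The osteoblast and fibroblast lists had a correlation of 0.89 over the pups, and osteoblasts and osteoclasts 0.82.

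The bone count moved with settings and with single pups. With quantile normalization 209 probes were called, with no filter 30, with slide as a block 8 and with the array median as a covariate 25. Leaving out 1 pup gave 2 calls without rat 26 and 353 without rat 27. It gave 46 without rat 9, 36 without rat 11, 81 without rat 12, 81 without rat 22, 65 without rat 23, 23 without rat 29, 273 without rat 30, 31 without rat 31, 10 without rat 32 and 34 without rat 35. Col11a1 was no longer called without rat 26 (adjusted p 0.0701) or with slide as a block (0.0619), and Mamdc2 without rat 26 (0.0648). Bglap (osteocalcin), Mepe and Ctsk, the widest osteoblast and osteoclast genes, were highest in rat 22 of L2 with levels of 10.85, 5.26 and 7.13.

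Antigen presentation, interferon response and ciliated cells varied together. Cd74, the chain that escorts MHC class II molecules, ran from 4.88 in rat 30 to 6.87 in rat 24, with a median of 5.56. Rats 24 and 12 stood highest above their litter means. With Cd74, 1707 probes rose (7.46%) and 406 fell (1.77%), and 5757 had an unadjusted p under 0.05. All 5 other MHC class II genes rose, with 9 of 14 interferon response genes, 13 of 18 genes of motile cilia, 5 of 10 gland genes and 4 of 10 hypoxia genes, and 3 of 20 immature neuron genes fell. Ciita, the master regulator of MHC class II, was well above background on no array.

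Among single genes, RT1-Db1, an MHC class II beta chain, had a slope of 0.90 (standard error 0.0865, adjusted p 0.000201, 15 pups). Ifitm1 (1.15, adjusted p 0.000211, 17 pups) and Ifitm3 (0.93, 16 pups) encode membrane proteins that block viruses, and Padi4 (0.94, 17 pups) a histone-modifying enzyme of granulocytes. RT1-Ba had the direction of Cd74 in 19 of 19 pups. The 4 genes of smallest p that fell were Nrcam, an adhesion protein of neurons (−0.59, adjusted p 0.000878, 14 pups), Sema6a, a guidance protein (−0.70, adjusted p 0.00141), Gjd2, a gap junction protein of neurons (−0.51, adjusted p 0.00151), and Snap91 (−0.81, adjusted p 0.00224).

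Rat 24 weighed heavily here. Its interferon genes were among the widest of their list, with Gbp2 at 6.43 (median 2.92), Oas1a at 5.60 (median 2.55) and Isg15 at 4.08 (median 1.36), and the lowest level of Gbp2 and Oas1a was in rat 10. Without rat 24, 354 probes were called (333 higher and 21 lower), and Sema6a (adjusted p 0.0554) and Snap91 (0.0606) were no longer called. Of the lists, 1 interferon gene, 6 cilia genes, 1 gland gene and no hypoxia or immature neuron gene were then called. With slide as a block, 4 were called and Ifitm1 (0.0638), Ifitm3 (0.0572), Nrcam (0.112), Sema6a (0.138), Gjd2 (0.119) and Snap91 (0.119) were lost, and 1 MHC class II gene was called and none of the interferon, cilia, gland, hypoxia and immature neuron genes. This block takes out the values of rats 24, 26, 28 and 34, each the 1 pup of its litter on its slide. These 4 were also scanned on another day than the rest of L2, L3 and L4. Rats 24, 28 and 34 were the highest of their litters for the medians of the MHC class II list (0.70, 0.28 and 0.36), the immediate early list (0.55, 0.31 and 0.38) and the glucocorticoid list (0.17, 0.17 and 0.20), while rat 26 had 0.11, 0.07 and 0.01. Whether slide or scan day set them apart was not tested. With quantile normalization 1374 were called, with 3 gland genes higher and 1 immature neuron gene lower. The probes that fell numbered 626 without rat 10 and 235 without rat 21, and the immature neuron genes that fell numbered 5 without rat 10 and 7 without rat 11 or rat 12. The medians of the MHC class II and interferon lists had a correlation of 0.88 over the 19 pups, and those of the cilia and gland lists 0.87.

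Neutrophil genes were wide, and most had slopes above 0 on S100a8 without being called. S100a8, which pairs with S100a9 as the calprotectin of neutrophils, ran from 2.80 in rat 28 to 6.06 in rat 24 with a median of 3.68. In L2 rats 23 and 25 were low and in L4 rat 35 was high and rat 33 low. With S100a8, 86 probes rose (0.376%) and 6 fell (0.0262%), and 2699 had an unadjusted p under 0.05. Its partner S100a9 (slope 1.02, standard error 0.0357, adjusted p 2.27e-11, 18 pups) was the 1 called of 10 other neutrophil genes, 9 of which had slopes above 0, as did 8920 of all 22882 probes.

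Other genes called with S100a8 are known from several kinds of cell. Stfa2, a cysteine protease inhibitor, had a slope of 1.21 (adjusted p 4.29e-07, 15 pups), Retn 0.87 (adjusted p 4.29e-07, 17 pups) and Napsa, an aspartic protease, 0.89 (adjusted p 4.94e-07, 17 pups). Ncf1, a subunit of the phagocyte oxidase, Lyz2, Pglyrp1, Lrg1 and 3 of 14 interferon genes also rose. The defensins RatNP-3b and Defa5 were the widest of the list (SD 0.945 and 0.935) and highest in rat 35 of L4, with levels of 6.76 and 7.29, while rat 28 of L3 was lowest for both. The genes that fell included Frmpd4 (slope −0.32, adjusted p 0.0181, 11 pups), Plxna3 (−0.24, 0.0264), Fam120c (−0.24, 0.0288) and Cyp3a9 (−0.29, 0.0336). None of these 4 was called without rat 24 (adjusted p 0.94 each), without rat 23 (0.117, 0.119, 0.142 and 0.167) or with slide as a block (0.746 each). Plxna3, Fam120c and Cyp3a9 were also lost in 4, 5 and 4 further settings or pups left out, with adjusted p between 0.0513 and 0.0682. The whole count was 23 without rat 24, 55 without rat 23, 152 without rat 35 and 19 with slide as a block, and none of the interferon genes rose without rat 24 or with that block, and 1 without rat 23.

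A gene of dividing cells and a gene of mature neurons went together over the pups, in a relation that did not pass under every setting. Top2a, the topoisomerase of dividing cells, ran from 5.18 in rat 24 to 6.08 in rat 27 with a median of 5.61. Omp ran from 4.42 in rat 24 to 5.72 in rat 27 with a median of 5.23. The lowest and the highest pup were thus the same for both genes. Their litter-centred levels had a Pearson correlation of 0.73 over the 19 pups (permutation p 0.00141, adjusted over 28 pairs 0.0395) and a Spearman correlation of 0.67 (permutation p 0.00505, adjusted 0.0707). Without rats 27 and 10, r was 0.622, and within slides it was 0.731 (n = 15). This was the 1 pair of the 28 to pass by Pearson correlation, and it did not pass under the 75th percentile (r 0.689, adjusted p 0.0924), quantile (0.663, 0.0763) or normexp scaling (0.667, 0.109), or with slide as a block (adjusted p 0.198). It also did not pass without any 1 of 12 pups, with r between 0.664 (without rat 10) and 0.747 (without rat 25) there. The Spearman value, which did not pass with all pups, passed without rat 12 (adjusted p 0.0435), rat 33 (0.0255) or rat 35 (0.0493).

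With Top2a, 3541 probes rose (15.5% of 22881) and 968 fell (4.23%), and 8041 had an unadjusted p under 0.05. Of the other cell cycle genes 33 of 35 rose, and this held at 32 or 33 under the 75th percentile, quantile and normexp scalings. Atad2, a chromatin ATPase of S phase, had a slope of 1.43 (standard error 0.14, adjusted p 0.000109, 18 pups). Ccna2, the S phase cyclin, had 1.17 in 17 pups, Orc1, which marks replication origins, 1.11 in 18 pups and Wdhd1 1.03 in 19 pups. Nuf2, Spc25 and Ckap2 of the mitotic spindle and Ccnb1 rose as well.

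Several of the genes that fell with Top2a are known from neurons of the brain. Gda, guanine deaminase, had a slope of −1.98 (standard error 0.232, adjusted p 0.000145, 17 pups), Cx3cl1, a chemokine of neurons, −2.07 (adjusted p 0.000274, 18 pups), Slc2a6 −1.74 (adjusted p 0.000293, 19 pups) and Pitpnm1 −1.41 (adjusted p 0.000359, 18 pups). Of the brain neuron list 4 of 7 genes fell, among them Nrgn, a calmodulin-binding protein of dendrites, with a slope of −1.88 in 19 pups. This was 1 of 7 with quantile normalization and with normexp, and 2 of 7 without rat 27 or rat 32. The medians of the cell cycle and brain neuron lists had a correlation of −0.65 over the pups. Gda and Cx3cl1 did not simply follow the brain neuron list. They were highest in rat 24 (6.22 and 8.02), where the median of that list stood at −0.32. Slc2a6 and Pitpnm1 were highest in rat 32 (4.25 and 4.45), where it stood at 1.19.

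The genes of the epithelium that rose with Top2a depended more on the scaling. Of 18 mature neuron genes 14 rose, but 7, 4 and 5 with the 75th percentile, quantile and normexp scalings. Of 297 OR genes 112 rose and none fell, and 289 had slopes above 0, as did 16739 of all 22881 probes, but 54, 11 and 12 rose under these scalings, 24 without rat 32, 27 without rat 10, 64 without rat 27 and 69 without rat 23. Mature neuron genes that rose numbered 5 without rat 10 or rat 32 and 8 without rat 27. Of all probes 2308 (1541 higher and 767 lower), 1750 and 1841 were called under them, and 7062 with slide as a block. The share of higher calls was 78.5% as given first and 66.8% with the 75th percentile. Leaving out 1 pup gave 1706 calls without rat 32, 2155 without rat 27, 2480 without rat 10 and 2880 without rat 23. The largest shift of a pup's median level against its litter mean was −0.12, in rat 32, and it was 0.09, 0.07 and 0.05 in size under the other scalings.

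With Omp, genes of neurons, of their progenitors and of supporting cells rose. The fit called 4579 probes as higher (20.0%) and 966 as lower (4.22%), and 8690 had an unadjusted p under 0.05. Of the other mature neuron genes 15 of 17 rose, with 10 of 11 globose basal cell genes, 12 of 16 sustentacular genes, 22 of 36 cell cycle genes and 10 of 18 cartilage genes. Under the 75th percentile, quantile and normexp scalings these were 14 each for neurons, 8, 7 and 8 for globose basal cells, 10 each for sustentacular cells and 9, 8 and 9 for cartilage. Among immature neurons 7 of 20 rose. Of the globose basal cell genes 5 rose without rat 10 and 6 without rat 32.

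Among the closest genes were parts of the odour response. Gnal, the G protein that couples odour receptors to the cyclase, had a slope of 1.07 (standard error 0.0679, adjusted p 3.56e-07, 18 pups), and Rtp1, which brings receptors to the cell surface, 1.1 (adjusted p 3.41e-06, 17 pups). Mrc2, a collagen receptor, had 1.32 (adjusted p 1.59e-06, 17 pups) and LOC503009, annotated as similar to a cyclin-dependent kinase-like protein, 1.01 (adjusted p 3.92e-06, 18 pups).

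OR genes went with Omp as a family. Of the 297 that counted 214 rose and none fell, and 288 had slopes above 0, as did 16068 of all 22882 probes, with 187, 180 and 175 rising under the 75th percentile, quantile and normexp scalings. Olr1417 had a slope of 0.97 (adjusted p 5.7e-06) and Olr367 0.90 (adjusted p 6.42e-06), each in 19 of 19 pups. The median correlation between pairs of OR genes was 0.575, and 94.4% of the pairs were above 0, against a median of 0.112 over an evenly spaced sample of 2289 probes. By level across the litters, the 5 widest OR genes were all lowest in rat 12 of L1 and highest in rat 34 of L4. Among them were Olr720 (from −2.26 to 1.86, median 0.94) and Olr1627 (from −0.64 to 3.05, median 2.29). Against the litter mean, Olr720, Olr629 and Olr691 deviated most in rat 32 (−2.07, −1.71 and −1.62). Olr1627 did so in rat 12 (−1.96) and Olr337 in rat 10 (1.66). The family median of rat 12 was 0.13 above the litter mean. Over the whole family the median was 0.56 above the litter mean in rat 10, 0.38 in rat 34 and 0.33 in rat 23, and at −0.47 in rat 30 and −0.43 in rat 32.

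Some genes of skin, vessels, glia and horizontal basal cells fell with Omp, and the glial and horizontal basal calls were lost without single pups. Aloxe3, a lipoxygenase of the skin barrier, had a slope of −4.25 (standard error 0.394, adjusted p 7.8e-06, 17 pups) and Slpi, a protease inhibitor of secretions, −6.54 (adjusted p 5.41e-05, 15 pups). Aqp9, a channel for water and glycerol, had −1.82 (adjusted p 5.29e-05, 18 pups) and Gsto1, a glutathione transferase, −0.91 (adjusted p 6.51e-05, 17 pups). Both epidermis genes fell, with 6 of 10 endothelial genes, 3 of 11 glial genes and 3 of 7 horizontal basal cell genes (4, 5 and 4 under the other scalings, and 0 with no filter). No horizontal basal cell gene fell without rat 9, 10 or 30, and 1 fell without rat 11, 22 or 35, and no glial gene fell without rat 23 or rat 32. The whole count was 9475 with slide as a block, 8345 without rat 24 and 3455 without rat 10, and the probes that fell numbered 1755 without rat 24, 573 without rat 30, 557 without rat 32 and 503 without rat 10. Of the probes called with Top2a 66.8% were also called with Omp, which is 54.3% of the latter, and all 3012 had the same sign in both.

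The lists of globose and horizontal basal cells had a correlation of −0.55 over the 19 pups, as a description. Basal cells of other stratified epithelium were not told apart from the horizontal basal cells here. Neurog1, a regulator of the step from globose basal cells to neurons, was lowest in rat 11 of L1 (2.35) and highest in rat 23 of L2 (5.07). Krt5 and Krt14 were highest in rat 11 (8.60 and 10.65) and lowest in rat 12 (4.68 and 7.39). The list of globose basal cells stood at −0.52 and that of horizontal basal cells at 0.91 in rat 11, and at 0.54 and −0.77 in rat 10 of the same litter. In rats 31 (0.23 and 0.24) and 32 (−0.41 and −0.27) of L4 both lay on the same side of the litter mean.

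Secretory Bpifa1 served for the glands because Obp1f, the first choice, was well above background on 17 arrays alone. Bpifa1, an antimicrobial protein of the airways, was nearly flat, from 12.26 to 12.71 with an SD of 0.122. With it 2716 probes rose (11.9%) and 459 fell (2.01%), and 6909 had an unadjusted p under 0.05, but none of the other gland genes was among them. Reference genes (6 of 14) and immediate early genes (5 of 13) rose instead. Rabif, a factor of Rab proteins, led with a slope of 3.63 (standard error 0.429, adjusted p 0.000528, 17 pups), and LOC684666 fell (−1.64, adjusted p 0.00191). Under quantile normalization, under normexp, with slide as a block and with the array median as a covariate no probe was called by limma, and 7 of the 8 named slopes changed sign with quantile normalization.

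This block moved with the brightness of the array. Rats 24, 26, 28 and 34 had the lowest array medians of L2, L3 and L4 (48.28, 47.12, 49.53 and 42.89 intensity units). They were also scanned on another day than their littermates, and whether slide, scan day or brightness moved the probes was not tested. With the array median in place of a gene, 850 probes rose (3.71%) and 1496 fell (6.54%), and 5990 had an unadjusted p under 0.05. Of the probes called with Bpifa1 1721 (54.2%, and 73.4% of those called with the array median) were called here with the opposite sign. Gosr1, of the Golgi, had a slope of −1.42 (adjusted p 7.73e-05), and Rps2, a ribosomal protein, −0.66. With the 75th percentile 1890 probes rose with Bpifa1 and 1291 fell, and the share of higher calls went from 85.5% to 59.4%. With the array median it went from 36.2% to 53.9% under quantile normalization and 53.6% under normexp, and no probe was called with slide as a block. The Bpifa1 count was 1312 without rat 34 and 1792 without rat 28, with 1 and 3 immediate early genes, and the array median count 1080 without rat 34, 1099 without rat 28 and 1338 without rat 26.

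Some of the blocks shared probes, and not every share exceeded that over all probes. Top2a and Omp shared 3012 probes (66.8% of the Top2a calls), all with the same sign, where 5545 of all 22882 probes were called with Omp. Cd74 and Bpifa1 shared 363 (17.2% of the Cd74 calls), all with the same sign, where 3175 of all were called with Bpifa1. Cd74 and the array median shared 158 (7.48%), all with the opposite sign, where 2346 of all were called with the latter. That share lay below the share over all probes. Muscle and red cell probes (55 and 36 calls) shared none with the bone, neutrophil, cell cycle or neuron calls. Over all probes those calls numbered 123, 92, 4509 and 5545, so with bone and neutrophil almost no shared probe could arise by share alone. The muscle calls shared 4 (7.27%) with the Cd74 calls, all with the opposite sign. The red cell calls shared 1 (2.78%) with Cd74 and 1 (2.78%) with the array median. These shares lay below those over all probes (2113 called with Cd74 and 2346 with the array median). Of the 123 bone probes 67 (54.5%) were also called with Top2a (4509 of all probes were). Of the 92 neutrophil probes 52 (56.5%) were also called with Cd74, all with the same sign (2113 of all probes were called). With Omp 24 of the 92 (26.1%) were called, all with the opposite sign. That is near the share over all probes (5545 of all). Ibsp and Top2a had a Pearson correlation of 0.695 (permutation p 0.00437, adjusted 0.0612) and a Spearman correlation of 0.751 (permutation p 0.00162, adjusted 0.0454), with r 0.588 without rats 32 and 26 and 0.696 within slides. S100a8 and Omp had −0.577 (permutation p 0.0164, adjusted 0.153, Spearman −0.591), with −0.323 without rats 24 and 23 and −0.424 within slides. Acta1 and Cd74 had −0.49 (permutation p 0.0393, adjusted 0.244, Spearman −0.588), with −0.466 without rats 29 and 30 and −0.624 within slides. Cd74 and S100a8 had 0.532 (permutation p 0.0764, adjusted 0.357, Spearman 0.281), with 0.206 without rats 24 and 12 and 0.111 within slides.

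The Spearman value of Ibsp and Top2a was lost under the 75th percentile, quantile and normexp scalings and with slide as a block (adjusted p 0.0888, 0.115, 0.139 and 0.294) and without any 1 of 13 pups, with rho between 0.641 (without rat 26) and 0.754 (without rat 29) there. The Pearson value of this pair passed without rat 11 (adjusted p 0.0384), rat 27 (0.0185) or rat 29 (0.0431).

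The medians of the lists gave a wider view, as a description over 19 pups that share litters and arrays. Of 465 pairs of 31 lists, mature neurons went with sustentacular cells (0.95), OR genes (0.94) and globose basal cells (0.93). Against these ran the endothelium, at −0.82 with OR genes, −0.77 with globose basal cells and −0.73 with mature neurons, and horizontal basal cells, at −0.63 with mature neurons and −0.70 with immature neurons. Cartilage went with OR genes (0.77) and against horizontal basal cells (−0.76). MHC class II genes went with glucocorticoid targets (0.86), glands (0.83) and cilia (0.79), and interferon genes with adipocytes (0.85). Rat 24 was the highest pup for the medians of the interferon (0.87), gland (0.83), MHC class II (0.70), adipocyte (0.62) and cilia (0.57) lists. Its part in these correlations was not tested. Pairs of adipocyte genes had a median correlation of 0.119, near the 0.112 of the evenly spaced sample of probes. Macrophage genes ran against immature neurons (−0.75).

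How tightly a list held together differed from how wide it was. The median correlation between pairs of genes was 0.901 for MHC class II, 0.874 for motile cilia, 0.815 for mature neurons, 0.79 for the cell cycle and 0.709 for red cells, all narrower than the muscle list. The wide muscle and neutrophil lists had 0.605 and 0.585, osteoblasts 0.349 and the clock −0.0163.

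Litters differed in how wide some genes were. Over all probes L1 had a median SD of 0.179, L2 had 0.175, L3 had 0.202 and L4 had 0.188. A limma test of the deviations over the 4 litters called 36 probes (0.157%), and 2429 had an unadjusted p under 0.05. L1 was the widest litter for 27 of them, L2 for 5, L3 for 2 and L4 for 2. Krt5 and Krt14 were among those widest in L1: Krt5 had a mean deviation of 1.77 there and 0.23, 0.69 and 0.42 in L2, L3 and L4 (adjusted p 0.0299), and Krt14 had 1.39 and 0.23, 0.51 and 0.30 (adjusted p 0.024). Tp63, a regulator of basal cells (adjusted p 0.0318), Lamb3 and Col7a1, of the basement membrane, Dst and Klf4 were also widest in L1. Krt15 was not called, and its largest deviation was 1.39, in rat 24 of L2. Ssu72, a phosphatase of RNA polymerase, had the smallest adjusted p of the named genes, 0.000357, with 0.61 in L1 and 0.08, 0.21 and 0.15 in the others.

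Csap1, Dmbt1, LOC690507 and Gdf5 (mean deviation 1.09) were the named genes widest in L2. Csap1 had a mean deviation of 4.08 there and 0.91, 0.70 and 0.45 in L1, L3 and L4 (adjusted p 0.0116), while Dmbt1 had 2.48 in L2 and 1.61 in L3 against 0.52 in both L1 and L4. LOC690507 had 2.35 in L2 and 1.71 in L3 against 0.28 and 0.68 in L1 and L4. This count moved with single pups: 17 probes were called without rat 12, 20 without rat 25, 57 without rat 34, 63 without rat 24, 117 without rat 9 and 324 without rat 30. It was 80 with quantile normalization, 87 with normexp, 3010 with no filter and 108 with slide as a block.

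Among the widest genes of other lists, several were highest in rat 24 or lowest in rat 9. Fabp7, of the ensheathing glia of the olfactory nerve, was highest in rat 32 (9.59) and lowest in rat 23 (5.35). The adipocyte gene Dgat2 (7.62, median 4.88), Cd14 of macrophages (7.93, median 5.78) and the hypoxia target Adm (5.88, median 4.06) were highest in rat 24. Col2a1, the collagen of cartilage, was lowest in rat 9 (5.77) and highest in rat 33 (8.19). Of the sex-linked list 3 of 9 genes had a probe by gene symbol, all on the X chromosome, with a median SD of 0.351. Eif2s3 ran from 4.30 in rat 9 to 5.48 in rat 29, Utx from 2.48 in rat 9 to 4.19 in rat 21 and Kdm5c from −1.41 to −0.27.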

How the data were processed

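RNA of the olfactory epithelium was measured in 19 newborn pups, and in 8 adult and old rats for the spread between sides. The authors scanned the arrays with an Agilent scanner and took the signals from the scans with Agilent Feature Extraction (9.5.3.1 for the pups, 9.5.1.1 for part of the older rats). They deposited a background-subtracted intensity per spot. Their deposited flag columns (other) say whether a spot is well above background or an outlier. The series matrix that the authors deposited holds ratio values, scaled by a constant for every probe after division by the array's median. Of its 41012 lines 99.8% differed from the intensities so scaled by a fixed factor (log2 SD below 0.01), and its column medians lay between 0.723 and 0.978 with a median of 0.875. It served as an alternative alone.

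Spots of a repeated probe were averaged after 3294 outlier values had been left out. Intensities were divided by the array median, raised to a floor of 0.01 where they were lower, and turned into log2. Each probe was centred on its litter mean. Slopes, deviations between litters and deviations against sides were tested with limma 3.58.1 in R 4.3.3, in two-sided tests, with p values adjusted by the Benjamini-Hochberg method over all probes tested. Correlations between the 8 genes were tested with 100000 permutations within litters (seed 7), adjusted over 28 pairs. Python 3.11.15, numpy 2.4.6, pandas 2.3.3, scipy 1.17.1 and matplotlib 3.10.9 did the rest. The fits were first tested on simulated data.

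Alternatives were the 75th percentile, quantile normalization, normexp (offset 50) with quantile normalization after it, no filter, the series matrix, slide within litter as a block, the array median as a covariate, and each pup left out. The pups lay on 6 slides scanned on 3 days, and all of L1 on 1 slide. The members and lists were chosen with earlier results of these data known. Genes named were the 25 symbols of highest SD, the 8 genes, the 4 symbols of smallest p per gene and direction, the 3 widest members of each list, the sex-linked list, the 5 widest OR genes and the 5 narrowest symbols with a mean level above 2. Other genes, as members of modules and lists or among the calls, were named after their values were seen. The gene lists were written from general knowledge of these cells, and the probe of highest mean level stood for a gene. Data of the older rats were not used otherwise.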

Additional observations from a re-analysis of the deposited data

Results flagged for a closer look

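Within each litter, the highest or lowest pup was compared with its nearest littermate for 204 groups of values, and 17 groups had 1 pup far from the others, where chance flags about 1 in 20 groups. That rate does not hold for the module medians, 4 of the 17, since the modules were built from the probes of highest SD. It need not hold for the lists and single genes either, which were chosen with earlier results of these data known. Some groups also share genes, as Cd74 and the MHC class II list do. Rat 24 of L2 stood apart in 7 of the 17 groups and rat 30 of L3 in 5. Rat 24 was above its 4 littermates for the chemokine and mucin module (2.96, next −0.19), the interferon list (0.87, next −0.06), the adipocyte list (0.62, next 0.03), the immediate early list (0.55, next −0.06), the hypoxia list (0.52, next −0.09) and the glucocorticoid list (0.17, next −0.07), and below them for the mast cell protease module (−2.17, next 0.26). Rat 30 of L3 was above its littermates for the epithelial and tooth module (2.44, next −0.46) and the epidermis list (4.31, next −0.76). It was below them for Cd74 (4.88, next 5.52), the MHC class II list (−0.54, next 0.09) and the T cell list (−0.51, next 0). Rat 21 of L2 was high for the brain neuron list (1.24, next 0.03) and the sex-linked list (0.39, next 0). Rat 26 of L3 was high for the chemokine and mucin module (0.52, next −0.06) and low for the lens and pigment list (−0.26, next 0.09). Rat 32 of L4 was low for Alas2 (7.39, next 8.37). What set these pups apart was not tested.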

How the results depend on the processing

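Under the series matrix of the authors all 15 counts and values kept within 1.5 times. With the 75th percentile the pair correlations that passed went from 1 to 0 and the cell cycle count from 4509 to 2308. With quantile normalization the pair correlations that passed were 0, the bone count 209, MHC class II 1374, cell cycle 1750, gland 0 and litters 80. With normexp the median SD was 0.132, the passing pairs 0, cell cycle 1841, gland 0 and litters 87. Of 192 SDs of named genes 56 moved with normexp, 20 with slide as a block and 8 with quantile normalization. With no filter the median SD was 0.311, the first component 17.5%, muscle 89, bone 30, litters 3010 and sides 141. With slide as a block the median SD was 0.179, the first component 48.5%, passing pairs 0, bone 8, MHC class II 4, neutrophil 19, cell cycle 7062, neuron 9475, gland 0, array median 0 and litters 108. In that fit 4 pups alone of their litter on a slide carry no information. With the array median as a covariate bone was 25 and gland 0. Against the sides, adult rats alone gave 56 calls and log2 deviations 1631. The slopes on the gland gene that reversed with quantile normalization were those of Rabif (−0.698), Tsn (−0.389), RGD1562833 (−1.59), LOC680286 (−0.957), LOC684666 (0.755), RGD1561526 (0.161) and Zfp445 (0.389). Leaving out each pup in turn gave a median SD from 0.195 to 0.209, a first component from 33.5% to 43.4%, modules from 3 to 6, passing pairs from 0 to 2, muscle from 47 to 58, red cell from 21 to 38, bone from 2 to 353, MHC class II from 354 to 2861, neutrophil from 23 to 152, cell cycle from 1706 to 5338, neuron from 3455 to 8345, gland from 1312 to 3588, array median from 1080 to 2337, litters from 17 to 324 and sides from 0 to 2. Except where the block or the left-out pup takes values away, the cause was not tested. No paired analysis was possible because each pup gave 1 array. Signal over background limits what dim probes, among them most OR genes, can show.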

Other observations

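Some of the widest differences between littermates lay among probes that were not well above background in every pup. These were looked at after the other values had been seen, by a level above 2 in at least 1 pup, and no test was made. There were 207 such probes, and 65 of them were bright in rat 30, 63 in rat 32, 44 in rat 9, 40 in rat 11 and 36 in rat 21. Krt13, a keratin of moist stratified epithelium such as that of the mouth, had a level of 10.24 in rat 9, 8.82 in rat 11, 9.35 in rat 30 and 5.24 in rat 32. Krtdap, of differentiating keratinocytes, had 8.43 in rat 11, 8.95 in rat 30 and 6.53 in rat 32. Ambn, which encodes the enamel protein ameloblastin, stood at 10.81 in rat 11 and 8.56 in rat 9 of L1, at 6.63 in rat 23 and 5.25 in rat 25 of L2 and at 4.54 in rat 35 of L4. Dspp, the precursor of dentine proteins, stood at 4.10 in rat 11. The odorant-binding protein Obp1f stood at 8.30 in rat 24 and 9.66 in rat 25, and its littermates 21, 22 and 23 at −3.92, −4.95 and −0.93.

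Some plasma proteins known from the liver were highest in rat 12 of L1, though some of their probes were also well above background in other pups. In rat 12, Ttr stood at 8.64, Afp, the fetal albumin, at 7.29, Alb at 6.31, Ahsg at 4.98 and Fgb at 4.53. The Ttr probe was well above background on 13 arrays, with 4.67 in rat 9 and 3.07 in rat 31, and the Afp probe on 6. The Alb and Fgb probes given here were well above background in rat 12 alone. Some single bright probes were neighbours on the slide: 20 probes were bright in 1 pup alone, and 6 of these lay within 2 spots of another such probe. Btn1a1, a milk fat protein, stood at 11.05 in rat 22 and was among the probes bright in 1 pup alone.

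A group of 3 probes on the X chromosome, close to each other in build rn3 and on the minus strand, was bright in the same 5 pups, and their sequences are printed because they carry this pattern with no gene symbol. A_44_P324932 (chrX:91523230-91523289), annotated as similar to the X inactive specific transcript, stood at 5.51 in rat 11, 4.63 in rat 21, 5.12 in rat 29, 4.57 in rat 34 and 4.73 in rat 35, and at −0.81 in rat 9. A_44_P588551 (chrX:91521925-91521984) stood at 4.46, 3.86, 3.87, 3.32 and 3.71 in these 5 pups, and A_44_P597131 (chrX:91520961-91521020) was bright in the same ones. A_44_P638995, annotated as a subunit of the initiation factor eIF2, was well above background in the other 14 pups and in none of these 5. The median of the sex-linked list was highest within the litter in rats 11 (0.65), 21 (0.39) and 29 (0.29), and within L4 in rats 34 (0.43) and 35 (0.33). The labels give no sex for the pups, and no grouping was made from these values.
A_44_P324932: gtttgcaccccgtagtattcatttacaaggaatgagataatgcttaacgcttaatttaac
A_44_P588551: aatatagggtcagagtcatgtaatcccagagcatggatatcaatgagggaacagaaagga
A_44_P597131: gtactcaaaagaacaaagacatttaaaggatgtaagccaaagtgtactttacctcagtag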
